A study of Mus musculus with 4 samples.

Results

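The genes that encode inhibitors of cyclin-dependent kinases (CDKs) were followed through 4 arrays of Comma D beta cells, an epithelial line from the mouse mammary gland. The family has 7 members, Cdkn1a, Cdkn1b, Cdkn1c, Cdkn2a, Cdkn2b, Cdkn2c and Cdkn2d, of 18194 genes named on the array. They were found by gene symbol in the array annotation, which gives them 9 probe sets. Cdkn1a and Cdkn1b have 2 probe sets each, and the one with the higher mean level is called the main probe set. The groups were untreated Sca1+ cells, untreated Sca1- cells, Sca1+ cells after 1 day of doxycycline (dox) at 100 ng/ml, and Sca1- cells after the same treatment. All 4 came from the same line, grown in medium with EGF and insulin, and Sca1 is the surface marker used for the sort. The labels do not say what dox switches on in this line. Each group is 1 array of 200000 sorted cells, so no difference below has a replicate check, and no p-value is given.

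CDK inhibitors hold cells back in the G1 phase of the cell cycle. The INK4 proteins, encoded by the Cdkn2 genes, bind CDK4 and CDK6 and keep them from pairing with D-type cyclins, which leaves the retinoblastoma protein free to restrain E2F factors. The CIP/KIP proteins, encoded by the Cdkn1 genes, bind complexes of CDK2 with cyclin E or A. Bcl11b, named in the title of the series, is a zinc-finger repressor that has been described at the Cdkn1a and Cdkn1c promoters in other cells. In epithelia, these inhibitors are studied as brakes of progenitor division and as markers of quiescence and senescence.

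Cdkn2b, Cdkn2c and Cdkn2d were the members whose main probe set had a difference of 2-fold or more in some comparison, and the 250 bases before their transcription start are shown so that their promoters can be set side by side. The sequences are from RefSeq (GRCm38.p6). Capitals mark GC boxes (GGGCGG, either strand), CCAAT boxes (CCAAT, either strand), TATA boxes (TATAAA, either strand) and E2F sites (TTTCCCGC or TTTGGCGC, either strand); these motifs do not overlap one another here.
Cdkn2b (chr4:89311033-89311282, minus strand): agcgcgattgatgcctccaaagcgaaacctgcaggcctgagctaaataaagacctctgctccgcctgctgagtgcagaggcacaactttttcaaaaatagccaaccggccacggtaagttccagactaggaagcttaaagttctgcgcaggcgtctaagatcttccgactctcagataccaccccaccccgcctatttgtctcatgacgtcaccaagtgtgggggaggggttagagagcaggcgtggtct
Cdkn2c (chr4:109666757-109667006, minus strand): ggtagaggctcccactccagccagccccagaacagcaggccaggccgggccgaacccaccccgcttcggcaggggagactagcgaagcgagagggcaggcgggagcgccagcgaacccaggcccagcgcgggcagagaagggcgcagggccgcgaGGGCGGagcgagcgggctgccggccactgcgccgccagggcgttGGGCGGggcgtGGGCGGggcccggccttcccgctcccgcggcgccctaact
Cdkn2d (chr9:21291210-21291459, minus strand): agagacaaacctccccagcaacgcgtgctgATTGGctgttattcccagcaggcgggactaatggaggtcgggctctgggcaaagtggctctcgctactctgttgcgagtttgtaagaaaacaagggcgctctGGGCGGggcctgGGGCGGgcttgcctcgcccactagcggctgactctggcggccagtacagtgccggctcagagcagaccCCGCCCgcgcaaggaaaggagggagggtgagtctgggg
The Cdkn2c window holds 3 GC boxes and the Cdkn2d window 3 GC boxes and 1 CCAAT box, whereas the Cdkn2b window holds none of these motifs. Of 32851 mouse promoter windows of that length, 32.7% hold a GC box and 33.8% a CCAAT box. GC content was 77.2% for Cdkn2c, 63.6% for Cdkn2d and 53.6% for Cdkn2b, against a median of 52.4% over all windows. Cdkn2c has another annotated start, whose window holds none of the motifs and has a GC content of 42.8%. A match describes letters and says nothing of binding in these cells.

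The table covered 9 promoters of 6 members. Cdkn2a has 2 starts, from which the mRNAs of p19Arf and p16Ink4a begin, and the windows are not assigned to these products here. The window at the upstream start (chr4:89294620-89294869, minus strand) holds 2 GC boxes and the E2F site TTTCCCGC, found in 1.30% of all windows, and the other holds none of the motifs. The window at the upstream Cdkn1a start (chr17:29090729-29090978, plus strand) holds 2 matches to the 10-letter p53 motif, GGACTAGCTT and GAACATGTCT, on a search of both strands. The window at the other Cdkn1a start holds 2 GC boxes and no match to the p53 motif. The Cdkn2d window holds 1 match, GGGCTTGCCT, which overlaps a GC box, and 7.13% of all windows have at least 1. Cdkn1a is the classical target of p53.

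On the arrays, levels are log2 values as deposited, with a floor at a linear level of 10 (3.32 on the log2 scale). A difference against a floor value is a lower bound, written as "at least". Levels of different probe sets cannot be ranked against each other, because probes bind with different strength. Of the 12264 genes with an array at or above 3.63, the median of all probe sets, 21.4% differed 2-fold or more with dox in Sca1+ cells and 18.5% in Sca1- cells. All 7 members passed that filter, Cdkn1c only through the dox Sca1+ array. In Sca1+ cells 1 of the 7 members was higher past 2-fold, where 8.47% of genes were, and 1 was lower, where 12.9% were. In Sca1- cells 1 was higher against a background of 7.2%, and 2 were lower against 11.3%. With so few genes, nothing particular to the family can be read from these counts.

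**Figure D1:**
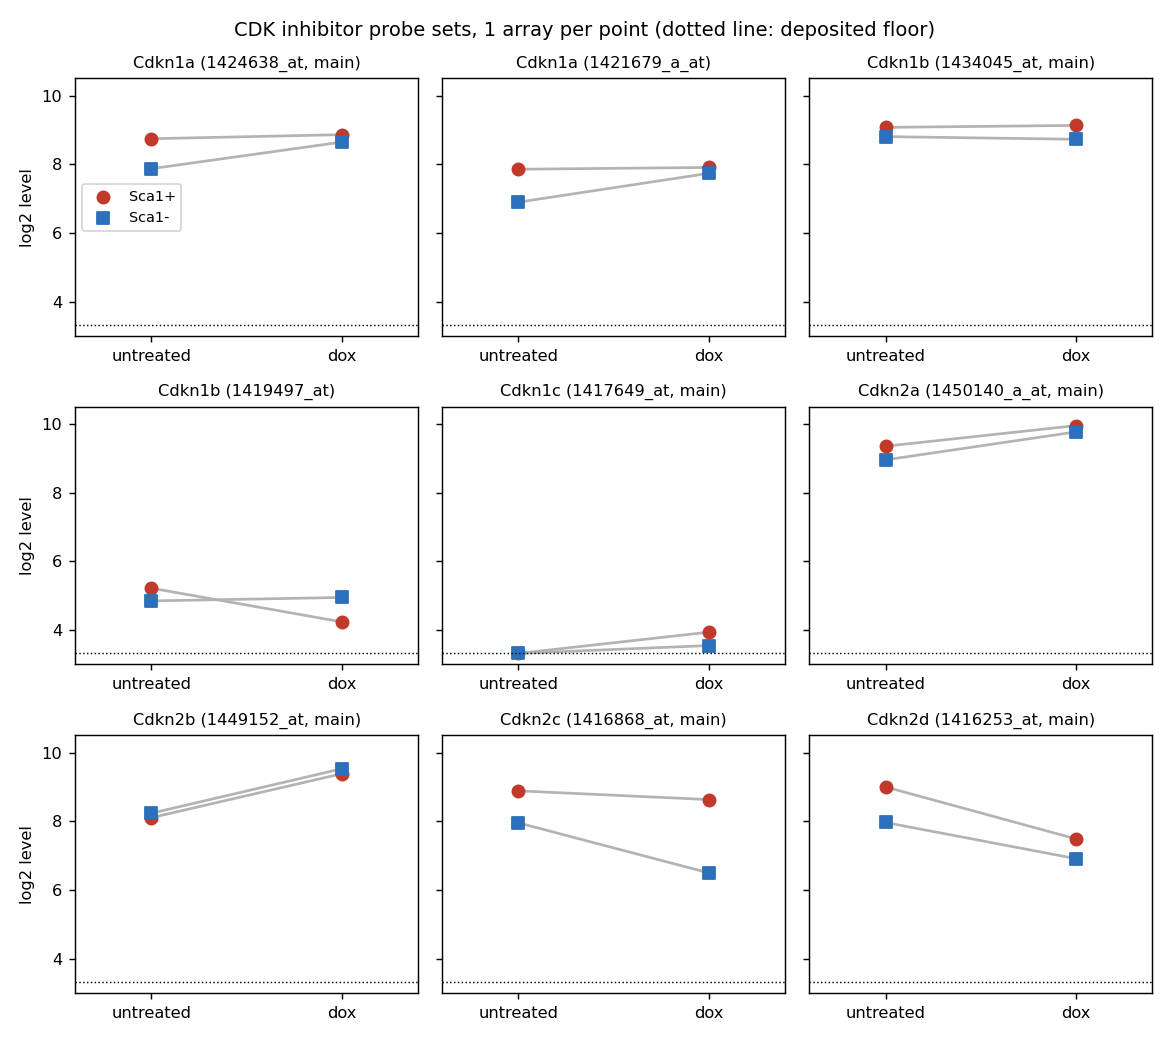
Log2 levels (y axis) of the 9 CDK inhibitor probe sets in untreated and dox-treated cells (x axis), with Sca1+ cells as circles and Sca1- cells as squares. Each point is 1 array, grey lines join the arrays of a fraction, and the dotted line is the floor at 3.32. Cdkn2b is higher on both dox arrays, Cdkn2d is lower on both, and Cdkn2c is lowest in dox-treated Sca1- cells at 6.49.

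Cdkn2b, which encodes the INK4 protein p15Ink4b, a mediator of TGF-beta growth arrest, was the member that was higher with dox past 2-fold. Its level was 8.10 in untreated Sca1+ cells, 8.23 in untreated Sca1- cells, 9.38 in dox Sca1+ cells and 9.53 in dox Sca1- cells. Both dox arrays lay above both untreated arrays, and the fractions lay close together under either treatment. The dox effect was 1.28 on the log2 scale in Sca1+ cells (2.43-fold) and 1.30 in Sca1- cells (2.46-fold). Over all genes analysed, 5.29% were 2-fold or more higher in both fractions. The Sca1+ minus Sca1- difference was -0.13 without dox and -0.14 with dox, smaller in size than that of 67.9% and 63.1% of genes.

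Cdkn2a lies beside Cdkn2b on chromosome 4 and encodes p16Ink4a, an inhibitor of CDK4 and CDK6, and p19Arf, which stabilises p53. The annotation gives its probe set the gene symbol and the record of a transcript. Whether the probes separate the products of the gene was not examined, so these are not told apart here. The level was 9.36 in untreated Sca1+ cells and 8.96 in untreated Sca1- cells, and 9.96 and 9.77 with dox. Both dox arrays were higher than both untreated ones, as for Cdkn2b, but the dox effects of 0.60 (1.52-fold) and 0.82 (1.76-fold) stayed under 2-fold. Differences of at least that size were seen in 39.0% of genes in Sca1+ cells and 24.7% in Sca1- cells. Mtap, the neighbour of the pair that encodes a methionine salvage enzyme, had dox effects of 0.17 and 0.23 by its main probe set. Its 4 probe sets ran from 0.20 to 0.66 in mean dox effect, and their average gave 0.49 and 0.53. The other neighbour listed, Dmrta1, was at the floor on 3 arrays and was not analysed.

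Cdkn2d encodes p19Ink4d, an INK4 protein known to be periodic in the cell cycle, and was lower with dox in both fractions. Its level was 9.0 in untreated Sca1+ cells and 7.96 in untreated Sca1- cells. With dox it was 7.48 in Sca1+ and 6.91 in Sca1- cells. Every dox array lay under both untreated arrays, and within a treatment the Sca1+ array was the higher one. The dox effects were -1.52 (2.86-fold lower) and -1.06 (2.08-fold lower), where 8.56% of genes analysed were 2-fold or more lower in both fractions. Sca1+ cells had 2.05 times the level of Sca1- cells without dox and 1.49 times with dox.

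Cdkn2c encodes p18Ink4c, an INK4 protein linked to luminal progenitors of the mammary gland. It read 8.88 in untreated Sca1+ and 7.95 in untreated Sca1- cells, then 8.63 and 6.49 with dox. The dox Sca1- array stood below the other arrays, and the level in Sca1+ cells was nearly the same with and without dox. The dox effect was -0.25 in Sca1+ cells (1.19-fold lower) and -1.46 in Sca1- cells (2.75-fold lower). The dox effects differed by 1.21 on the log2 scale. Of the genes analysed, 7.13% had effects 2-fold or more apart and 4.17% had a larger gap than Cdkn2c; whether the gap exceeds array error was not tested. It follows from the same 4 values that Sca1+ cells had 1.91 times the level of Sca1- cells without dox and 4.40 times with dox. Of all genes, 0.897% had a larger Sca1 difference under dox.

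**Figure D2:**
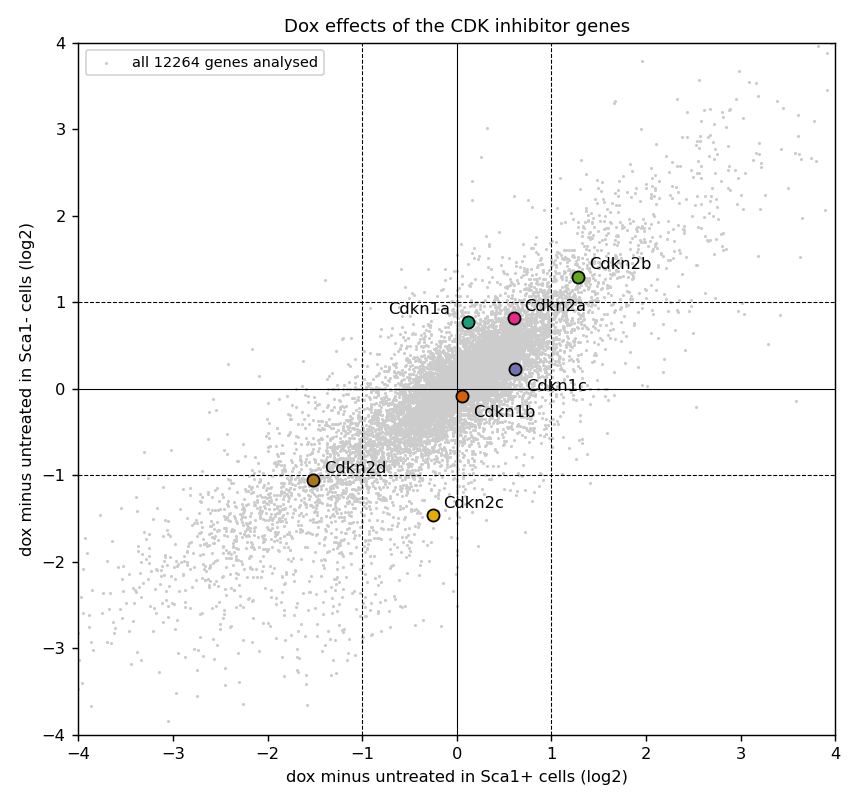
Dox effect in Sca1+ cells (x axis) against that in Sca1- cells (y axis), both as log2 differences of single arrays, for the 7 CDK inhibitor genes (large points) and 12264 analysed genes (grey). Dashed lines mark 2-fold, and 66 genes lie outside the axes. Cdkn2b lies past 2-fold in the upper right at 1.28 and 1.30, Cdkn2d past 2-fold in the lower left, and Cdkn2c past it on the y axis alone.

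Among the CIP/KIP genes, none was past 2-fold in any comparison by its main probe set. Cdkn1a encodes p21, which blocks CDK2 complexes and binds PCNA. Its main probe set read 8.74 in untreated Sca1+ cells, 7.87 in untreated Sca1- cells, 8.86 in dox Sca1+ cells and 8.65 in dox Sca1- cells. The untreated Sca1- array was the low one, and the other 3 lay within 0.21 of each other. The dox effect was therefore 0.12 in Sca1+ cells and 0.78 (1.71-fold) in Sca1- cells, and the Sca1 difference was 0.87 (1.83-fold) without dox and 0.21 with it. The second probe set read 7.86, 6.90, 7.91 and 7.74 in the same order. It gave dox effects of 0.05 and 0.84 and Sca1 differences of 0.96 and 0.17, the same order of arrays as the main one.

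Cdkn1b encodes p27, whose amount in cells is set largely by protein degradation. The main probe set varied least among the members that were above the floor on every array, with levels of 9.07 and 8.81 in untreated Sca1+ and Sca1- cells and 9.13 and 8.73 with dox. The dox effects were 0.06 and -0.08, and 90.8% and 87.3% of genes had larger ones. The second, dimmer probe set read 5.22 and 4.85 without dox and 4.24 and 4.95 with dox in the Sca1+ and Sca1- fractions. It differed from the main probe set in giving a dox effect of -0.98 in Sca1+ cells and a Sca1 difference of -0.71 with dox, against 0.06 and 0.40. The probe sets thus disagree, and no single direction can be given for Cdkn1b.

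Cdkn1c encodes p57, the imprinted member of the family. It was at the floor on both untreated arrays and read 3.94 in dox Sca1+ and 3.55 in dox Sca1- cells. The level under dox was thus higher by at least 1.54-fold in the Sca1+ fraction and by at least 1.17-fold in the Sca1- fraction. At linear levels of 15.4 and 11.7 the signal lay just above the floor of 10. Of 13 other imprinted growth genes with a probe set, 9 were analysed; 1 was 2-fold or more higher and 1 lower with dox in both fractions, against 5.29% and 8.56% of all genes. Plagl1, a zinc-finger factor known to regulate a network of imprinted genes, was higher by 1.06 and 2.09 (log2), though its other measured probe set averaged 0.05 over both fractions. Phlda2, Slc22a18 and Kcnq1 share the imprinted domain of Cdkn1c. Phlda2, a restrainer of placental growth, stood lower under dox, at least 4.44-fold in the Sca1+ fraction and 6.27-fold in the Sca1- fraction. Slc22a18 was lower by at least 3.27-fold in Sca1+ cells and by 1.55-fold in Sca1- cells. The channel gene Kcnq1 was at the floor on both dox arrays, which puts it lower by at least 1.79-fold in Sca1+ and at least 6.03-fold in Sca1- cells.

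Between the fractions, 6.39% of genes differed 2-fold or more without dox and 5.5% with dox. Of the 7 members, Cdkn2d was higher in Sca1+ cells without dox, where 3.07% of genes were higher and 3.33% lower. Cdkn2c was higher with dox, where 2.52% were higher and 2.98% lower. None of the 7 was past 2-fold at both times, where 1.08% of all genes were higher and 0.881% lower in Sca1+ cells. Cdkn1a, Cdkn1b, Cdkn2a, Cdkn2c and Cdkn2d were higher in the Sca1+ fraction at both times by their main probe sets, by 0.18 to 2.14. With probe sets averaged, however, Cdkn1b was lower with dox (-0.15). The share of all genes higher at both times at any size was not counted, so nothing particular to the family follows. Cdkn2b was slightly lower at both times.

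**Figure D3:**
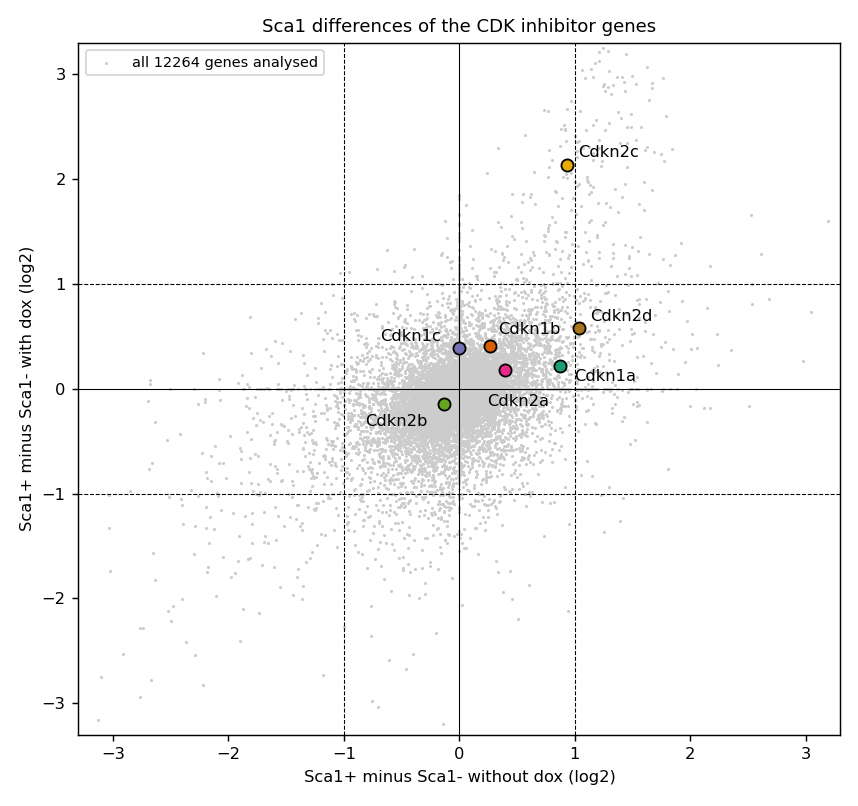
Sca1+ minus Sca1- difference without dox (x axis) against that with dox (y axis), as log2 differences of single arrays, for the 7 CDK inhibitor genes (large points) and 12264 analysed genes (grey). Dashed lines mark 2-fold, and 11 genes lie outside the axes. Cdkn2c stands highest at 0.93 without and 2.14 with dox, and Cdkn2b lies near the origin at -0.13 and -0.14.

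The cyclins and kinases that the inhibitors act on went lower with dox in part. Of 10 genes, the G1 cyclins, their kinases and the phosphatase gene Cdc25a, 4 were 2-fold or more lower in both fractions and none higher, where 8.56% and 5.29% of all genes were, with medians of -0.98 in Sca1+ and -1.09 in Sca1- cells. Ccnd1, a D-type cyclin that joins CDK4 or CDK6, was 4.58-fold and 2.92-fold lower. Ccne1 and Ccne2, the E-type cyclins that pair with CDK2, were lower by 3.25-fold and 5.77-fold and by 3.20-fold and 9.67-fold. Cdc25a, which activates CDK2, was lower by 2.05-fold and 2.23-fold. Ccna2, the A-type cyclin gene counted in this list, was lower by 1.99-fold in Sca1+ and 7.33-fold in Sca1- cells. The kinases and the other D-type cyclins are named here for their role, after their values were seen. Cdk2 had dox effects of -0.98 and -1.03, while Cdk4 stood at -0.25 and -0.17 and Cdk6 at 0.04 and 0.01. Ccnd2 had dox effects of 0.21 and -0.19 and Ccnd3 of 0.23 and 0.14. Of the D-type cyclins and the kinases bound by INK4 proteins, Ccnd1 was thus the one past 2-fold.

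Downstream of these kinases, 3 of 13 pocket-protein and E2F genes were 2-fold or more lower in both fractions and none higher, against 8.56% and 5.29% of all genes, with medians of -0.51 and -0.48. E2f8, a repressive E2F, was 3.21-fold and 6.97-fold lower, E2f2 2.33-fold and 2.33-fold, and Tfdp2, a dimerisation partner, 2.70-fold and 2.82-fold. The 3 measured probe sets of Tfdp2 ran from -1.46 to -0.11 in mean dox effect. The pocket-protein gene Rbl1 was 1.88-fold and 2.70-fold lower. E2f5, a repressive E2F, went the other way, 2.39-fold and 1.97-fold higher, with its 3 probe sets between 0.87 and 1.11 in mean dox effect. E2f7 was 2.59-fold higher in Sca1+ cells without dox and 3.22-fold higher with it. The turnover list had 3 of 12 genes lower with dox in both fractions and none higher, against the same background of 8.56% and 5.29%, with medians of -0.51 and -0.42. Skp2, the ubiquitin-ligase subunit that marks p27 for degradation, was 2.88-fold and 3.20-fold lower, although its 6 probe sets ran from -1.67 to -0.49 in mean dox effect. Dtl, the receptor of the ligase that degrades p21 in S phase, was 2.95-fold and 5.10-fold lower by its main probe set, and its others reached -0.19. Fbxo5, an inhibitor of the anaphase-promoting complex, was 2.67-fold and 6.07-fold lower. Of the same list, Fbxo5 and Cks2 were 2-fold or more higher in Sca1+ cells at both times, where 1.08% of all genes were. For Cks2 the difference was 2.03-fold without dox and 4.61-fold with it.

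Proliferation markers were read beside Cdkn2c and Cdkn2d. Of 8 analysed, 4 were 2-fold or more lower with dox in both fractions, and 4 were higher in Sca1+ cells at both times, against 8.56% and 1.08% of all genes. The 4 lower ones were Mki67, Top2a, Cdk1 and Aurkb. The median dox effects of the list were -1.04 in Sca1+ and -2.59 in Sca1- cells. The topoisomerase gene Top2a was lower with dox by 2.31-fold in Sca1+ and 7.01-fold in Sca1- cells, and the mitotic cyclin gene Ccnb2 1.82-fold and 5.16-fold. For both, as for Cdkn2c and Cdkn2d, the dox Sca1- array was the lowest of the 4, but the share of all genes with that trait was not counted. Each of the 8 markers, like Cdkn2c, fell more with dox in Sca1- than in Sca1+ cells. Cdkn2d differed from them, with a larger fall in Sca1+ cells (-1.52) than in Sca1- cells (-1.06). Cdkn2c, at -0.25 in Sca1+ cells, changed less there than any of the 8 markers, the smallest being Pcna at -0.50. The part of cell-cycle state in the levels of the inhibitors was not tested.

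**Figure D4:**
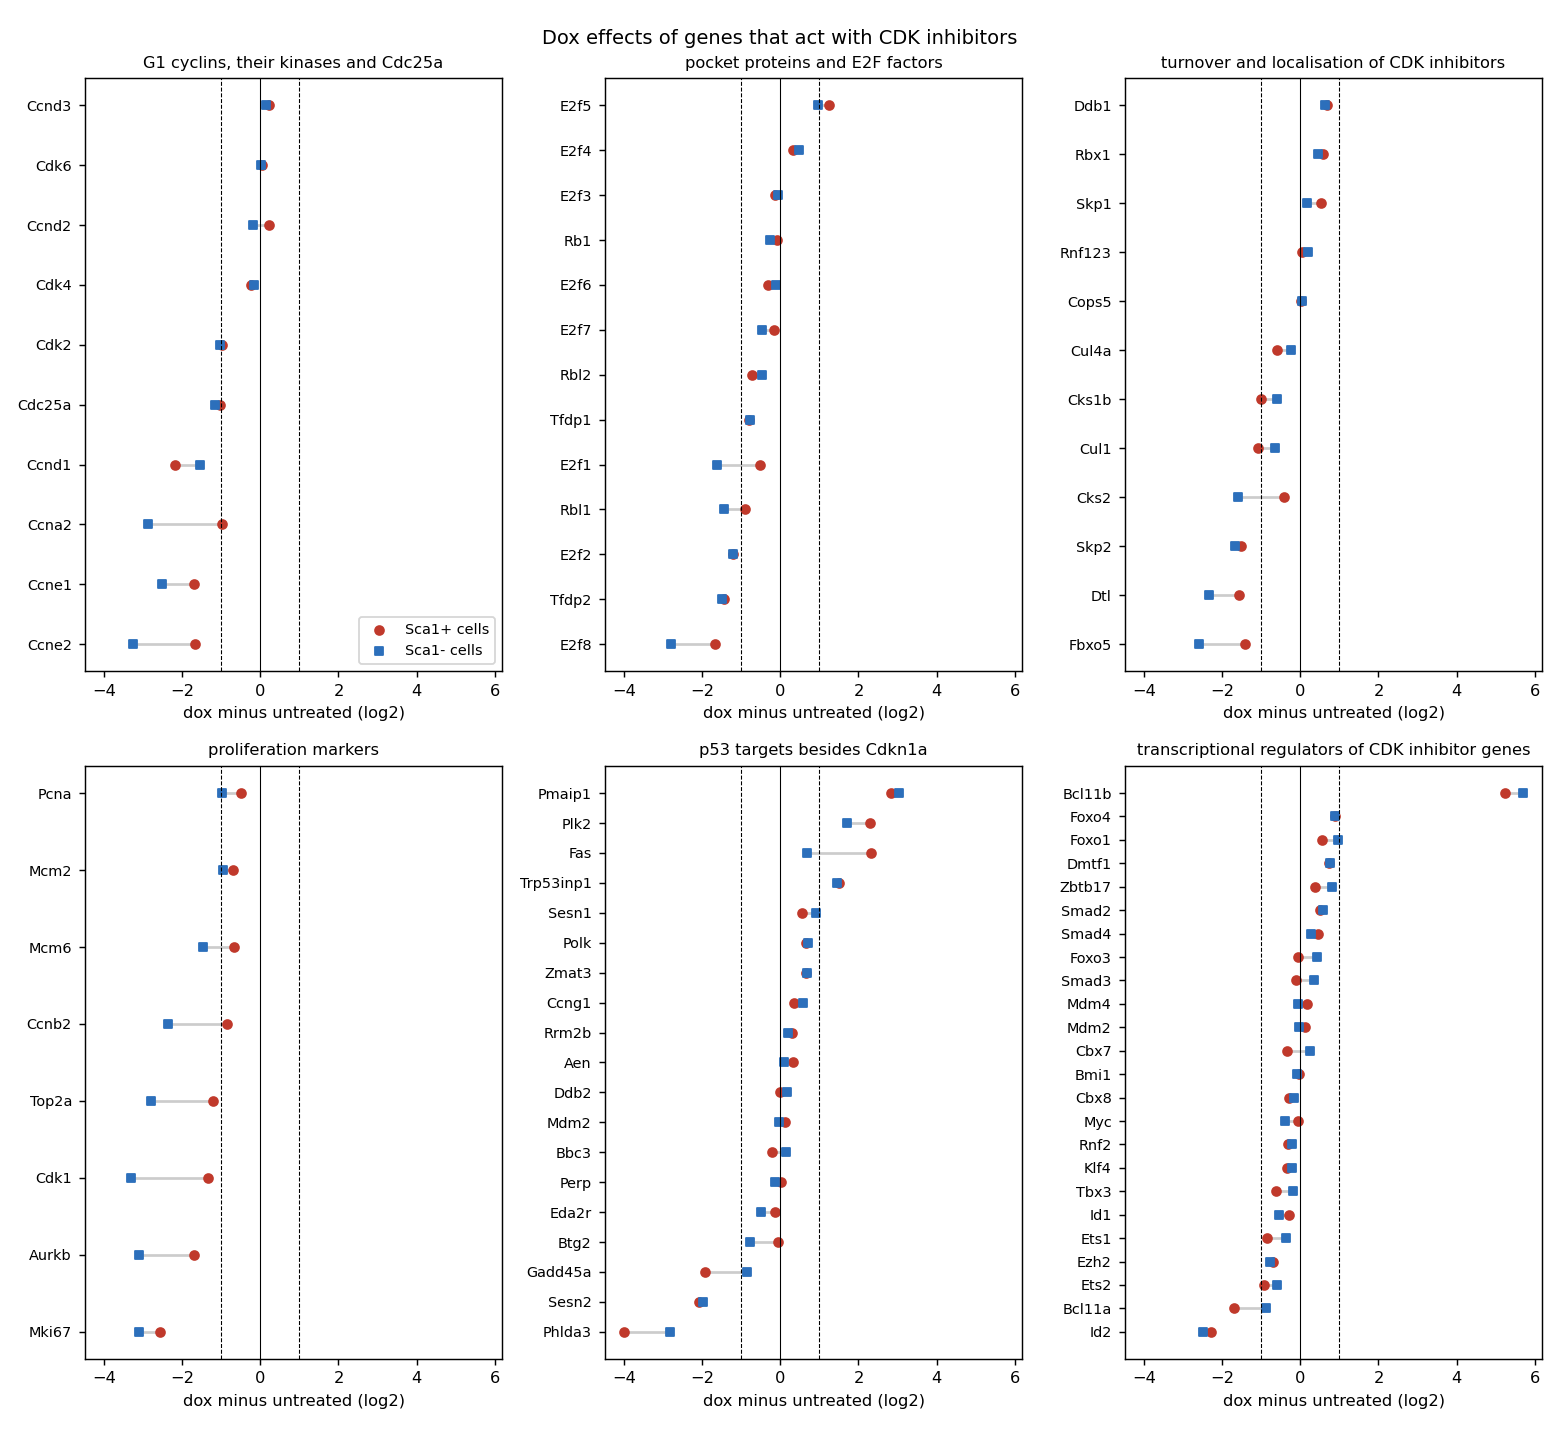
Dox effects (x axis, log2 difference of single arrays) of genes in 6 lists that act with CDK inhibitors, 1 gene a row, with circles for Sca1+ and squares for Sca1- cells. Dashed lines mark 2-fold. Ccne2, E2f8, Fbxo5 and Mki67 have the lowest mean of both effects in their lists, Cdk4 and Cdk6 lie near 0, and Bcl11b lies farthest to the right.

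Genes upstream of the family were read next. Of 24 analysed regulators of CDK inhibitor genes, 1 was 2-fold or more higher with dox in both fractions and 1 lower, against 5.29% and 8.56% of all genes, with medians of -0.08 and -0.07. The higher one was Bcl11b, by 5.25 and 5.70 (log2) on its main probe set, while none of its other 3 probe sets was higher. One of these had dox effects of -4.20 and -0.83 and another of -2.53 and -0.99, where the Sca1+ values are bounds because both were at the floor with dox, and the last was above the floor on the untreated Sca1+ array alone. Id2, an inhibitor of helix-loop-helix factors, was 4.88-fold and 5.64-fold lower with dox and 3.56-fold and 3.08-fold lower in Sca1+ than in Sca1- cells, with probe sets from -2.73 to -0.36 in mean dox effect. Bcl11a, the paralogue of Bcl11b, was 3.28-fold and 1.85-fold lower, with probe sets up to -0.29. The FOXO factors are activators of Cdkn1b, and none passed 2-fold. Foxo4 had dox effects of 0.88 and 0.88, Foxo1 of 0.56 and 0.97, and Foxo3, named after its values were seen, of -0.05 and 0.42.

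Of 19 p53 targets other than Cdkn1a, 3 were 2-fold or more higher with dox in both fractions and 2 lower, where 5.29% and 8.56% of all genes were, with medians of 0.30 and 0.17. Plk2, a polo-like kinase, was 4.92-fold and 3.26-fold higher and Trp53inp1 2.84-fold and 2.75-fold, alongside the death gene Pmaip1 at 7.17-fold and 8.16-fold. The other Trp53inp1 probe set averaged 0.69 (log2). Sesn2, a stress-induced inhibitor of mTORC1, was 4.22-fold and 3.97-fold lower, and Phlda3 had dox effects of -4.00 and -2.82. The list therefore went both ways, and Cdkn1a itself, at 0.12 and 0.78, passed 2-fold in neither.

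By a search for similar profiles over the 4 arrays, the nearest genes to each member were named. Among 10261 genes above the floor on all arrays, each profile was centred on its mean, and closeness was the Euclidean distance in log2 units. Nearest to Cdkn2c were Ncaph, Cks2 and Spdl1 (distances 0.15, 0.17 and 0.23), and nearest to Cdkn2d were Chst5, Cntln and Cyp4b1 (0.11, 0.14 and 0.14). Cdkn2b had S100pbp, Zdhhc17 and Zfp846 nearest (0.05, 0.05 and 0.07), Cdkn2a had Gmcl1, Enah and Arid5b (0.03, 0.03 and 0.04), and Cdkn1a had Wdr91, Dusp14 and Zfp850 (0.08, 0.11 and 0.14). Nearest to Cdkn1b were Zfp867, Atp6v1c1 and Zfp472 (0.04, 0.04 and 0.05), and Cdkn1c, at the floor on 2 arrays, was left out. Each distance rests on 4 values per gene.

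Of 8 epithelial markers 7 were analysed, and Krt19 was at the floor. Krt14, Epcam and Cdh1 read 10.28 or more on every array. The basal keratin gene Krt5 was lower with dox, at 11.46 and 10.77 in untreated Sca1+ and Sca1- cells against 7.47 and 7.63. The luminal keratin gene Krt8 read 7.67 and 9.36 without dox and 5.94 and 7.40 with it. The other keratin genes of the list did not all go that way. Krt18 read 9.77 and 11.37 without dox and 9.84 and 10.58 with it, and Krt14 11.77 and 11.54 against 11.87 and 11.92. Trp63 read 10.14 and 8.77 without dox and 9.70 and 8.63 with it. The summed linear level of the epithelial markers was 13030 and 14315 on the untreated arrays and 9429 and 10946 on the dox arrays. T-cell markers (5 of 5 with a probe set) and adipocyte markers (3 of 3) were at the floor on all arrays. Among leukocyte markers Ptprc and Itgam, among fibroblast markers Col1a1 and Pdgfrb, and among endothelial markers Cdh5 and Tek were also at the floor throughout. The summed linear level of the 5 fibroblast markers was 58.9 to 75.4 on the untreated and 396 to 728 on the dox arrays, through Dcn, and that of the 5 leukocyte markers was 1324 on the untreated Sca1- array and 160 to 249 on the others, through Cd14. Cd68 went the other way from Cd14, at 3.37 and 3.76 in untreated Sca1+ and Sca1- cells and 6.16 in both with dox. Csf1r read 4.06 and 4.35 without dox and 4.79 and 4.46 with it. The part of these markers in the results was not tested. The gene for Sca1 has no named probe set, so the sort follows the labels. The actin control probe sets, a check of RNA quality, had a gap between their 3' and 5' ends that ran from 0.69 on the untreated Sca1+ to 0.91 on the dox Sca1- array. The Gapdh control probe sets had a smaller gap, from -0.10 to 0.11 on the same arrays. The part of these gaps was not tested. In bulk RNA, fewer cells with a transcript and less transcript per cell cannot be told apart.

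Setting all arrays to an equal overall median, a value near the floor, moved the median of all genes from 0.03 to -0.16 for dox in Sca1+ cells and from -0.01 to 0.21 for Sca1 without dox. The share of higher genes among those past 2-fold went from 39.7% to 27.3% and from 48.0% to 70.0%. Under that scaling Cdkn1a (1.10), Cdkn2c (1.16) and Cdkn2d were past 2-fold between untreated fractions, the dox effects of Cdkn1a (-0.07) and Cdkn1b (-0.13) in Sca1+ cells changed sign, and so did the untreated Sca1 difference of Cdkn2b (0.09). The calls of Cdkn2b and Cdkn2d with dox held under the 3 scalings. The rest of the 7 alternatives could not change their values, because each gene has 1 probe set and no linear level under 100.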

How the data were processed

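Expression was measured by Affymetrix 3' IVT arrays, per the labels' protocols. The deposited table holds log2 levels of 45101 probe sets on 4 arrays. The authors' summarization, scaling, software and genome build were not given in the sources. No linear level is under 10, and 44.8% to 48.0% of probe sets lie at that floor on each array. A platform annotation gave 34958 probe sets 1 gene symbol, 932 several and 9211 none. A gene took the values of its brightest probe set by mean level, and genes reaching 3.63, the median of all values, on some array were analysed (12264 of 18194). Differences of log2 levels were counted at 2-fold or more (Python 3.11.15, pandas 2.3.3), and the counting was tested on simulated data. Named genes were the members, list genes 2-fold different in the same direction in both comparisons of a pair, and up to 5 genes per list by mean size; others are marked in the text. The lists held G1 cyclins and kinases, pocket proteins and E2Fs, inhibitor turnover, regulators, p53 targets, imprinted genes, proliferation markers, senescence-associated genes, locus neighbours and cell type markers. Members and lists were chosen with earlier results of these data known. Alternatives changed scaling, floor, probe set rule and filter. Promoter sequences were matched on RefSeq tables.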

Additional observations from a re-analysis of the deposited data

Results flagged for a closer look

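The dox effect on the main Cdkn1b probe set had opposite signs in the fractions, 0.0568 in Sca1+ and -0.08 in Sca1- cells (log2). The difference between them was not tested, and each rests on 1 array per group.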

How the results depend on the processing

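Of the counts of members past 2-fold, the 4 other than those for Sca1 without dox and Sca1 at both times kept their values of 2, 3, 1 and 2 under all 7 alternatives (3 scalings, a floor at 32, averaged probe sets, and 2 filters on low genes). The members in those counts, Cdkn2b, Cdkn2c and Cdkn2d, have 1 probe set each and no linear level under 32. Their own values could therefore change only under the scalings. An equal overall median on each array raised the count for Sca1 without dox from 1 to 3 and that for Sca1 at both times from 0 to 1, through Cdkn1a and Cdkn2c. The deposited medians were 3.48 on the untreated Sca1+ and 3.70 on the untreated Sca1- array, and this scaling shifts every gene by that gap. Why the medians differ was not tested. No called difference of a member changed sign under these alternatives. Cdkn1c could not be compared under the floor at 32 or the 2 filters. With probe sets averaged, the Cdkn1b dox effect in Sca1+ cells was -0.46. No paired analysis was possible because each group has 1 array, and no replicate could be left out. The floor limits what can be said of Cdkn1c. Among the gene lists, averaging probe sets cut the genes lower with dox in both fractions from 3 to 1 for E2F factors and the genes higher from 3 to 1 for p53 targets, and left no regulator (Bcl11b included), imprinted or senescence-associated gene higher. An equal overall median gave 1 higher and 4 lower E2F genes, none higher and 2 lower among imprinted genes, and 5 lower G1 genes. Proliferation markers lower with dox numbered 5 under that median and 3 with probe sets averaged. Those higher in Sca1+ cells at both times had the same counts. Averaging left 2 lower turnover genes, and centring on probe sets at a mean linear level of 100 or more left 3 lower G1 genes. Turnover genes higher in Sca1+ cells at both times went from 2 to 3 under an equal overall median. Averaging and that centring each left 1. The floor at 32 and the filter at linear 100 each left 2 lower E2F genes, and that filter left 1 lower p53 target. The count of lower imprinted genes and that of higher senescence-associated genes were 0 with the floor at 32 and with either filter.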

Other observations

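A list of 10 genes often measured beside CDK inhibitors in senescent cells had 7 analysed. Of these, 1 was 2-fold or more higher with dox in both fractions and 2 lower, where 5.29% and 8.56% of all genes were. Hmga2, a chromatin protein, was 5.98-fold and at least 3.63-fold higher by its main probe set, and another of its probe sets averaged 0.81 (log2). Lmnb1, the lamin B1 gene whose loss accompanies senescence, was 2.08-fold and 2.07-fold lower. Glb1, of the same list, was lower by less than 2-fold, with dox effects of -0.93 and -0.76 (log2). The chemokine gene Cxcl1 was 6.41-fold and 8.49-fold lower, and its 3 probe sets ran from -2.88 to -0.95 in mean dox effect. The cytokine gene Il6 had an untreated Sca1+ level of 3.34, next to the floor, and stood 9.76-fold higher under dox there, against 1.43-fold in the Sca1- fraction. The matrix metalloproteinase gene Mmp3 was at the floor on every array.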
